A study of Mus musculus with 8 samples.

Results

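In mouse brain, 2554 genes end their transcripts at a pair of polyadenylation sites that lie over 500 and at most 2000 bases apart within the last exon, and these pairs are described here. They were taken from a deposited table of 7951 genes, which gives the reads at a proximal site (upstream, nearer the coding region) and a distal site (downstream) of each 3′-most exon. A pair was included when its positions differed by more than 500 and at most 2000 bases and it had a mean over all 8 libraries of at least 20 reads, both sites added. The window held 2581 pairs in all, of which 27 were left out for too few reads. Neither criterion uses the genotype or the balance between the sites.

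The study sequenced the 3′ ends of polyadenylated RNA from total brain of 8 mice with the QuantSeq 3′ REV kit, whose reads start at the poly(A) tail, so that a read marks where a transcript ends. Of these mice, 3 were wild type and 5 carried Cstf2 D50A, a substitution of the aspartate at residue 50 of CSTF2 by alanine, and the series title connects it with human intellectual disability and with defective 3′ end formation. Both genotypes were untreated littermates killed on postnatal day 50, from a colony made congenic by backcrossing to C57BL/6NCrl. Sex and zygosity are not in the labels used here, and each library stands for 1 animal.

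CSTF2 is the RNA-binding subunit of the cleavage stimulation factor. Its RNA recognition motif binds U-rich and GU-rich sequence downstream of the cleavage point, and with the cleavage and polyadenylation specificity factor on the polyadenylation signal it helps to decide where a nascent transcript is cut. Where an exon has several such sites, ending at the distal site lengthens the 3′ untranslated region, which can carry sites for microRNAs and RNA-binding proteins, and neurons are known for long 3′ untranslated regions. The comparison of mutants with wild types therefore asks whether the use of proximal and distal sites differs where the sites are far enough apart for the choice to change the length of the untranslated region substantially.

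The distances between the sites had a median of 1049 bases, with quartiles of 737 and 1440. The pairs nearest to the limits were Kcnt1, the closest included, with Inpp5f just outside at 500 bases, and Prr5l, at 2000 bases, with 3110040N11Rik just outside at 2001 bases. On reads, Ggt5 was included with a mean of 20 reads per library and Maml3 was left out with 19.9. The mean number of reads per library was 445.5 at the median pair (quartiles 168.6 and 1220). Distal sites had the higher coordinate in 1307 pairs and the lower coordinate in 1247. Counts identical to those of another pair were listed for 16 of the 2554, among them Snrpn and Snurf, Amd1 and Amd2, and Rpp14 and Htd2, and the values of these are uncertain. All positions are those of the mouse build mm9 as the table gives them, which lists no chromosome.

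The libraries held between 9616953 and 17530761 reads in the table, and the pairs described here took 32.6% to 34.5% of them. Library composition differed among the mutants. A list of 25 markers of cerebellar granule cells, of which 17 were measured, averaged 7.03 to 7.14 log2 CPM (counts scaled to the library's table reads, corrected by edgeR's TMM factor and taken to log2) in wild types, 5.57 to 5.60 in mutants 1 to 4 and 7.09 in mutant 5. A list of 20 Purkinje cell markers, of which 13 were measured, averaged 6.94 to 7.12, 6.23 to 6.33 and 7.0. The summed level of the granule cell list was 6260 to 9020 CPM in wild types, 5520 to 6630 in mutants 1 to 4 and 8590 in mutant 5, and that of the Purkinje list 4730 to 5430, 3230 to 3440 and 4970. No marker of either list was at 0 in any library, and edgeR called none of them different between genotypes, although 13 granule cell and 6 Purkinje cell markers were lower in mutants at a nominal p below 0.05. Other lists also differed between these libraries: forebrain neuron markers averaged 5.71 to 6.24 in wild types, 6.36 to 6.45 in mutants 1 to 4 and 6.15 in mutant 5, and endothelial and pericyte markers 4.2 to 5.02, 5.03 to 5.44 and 4.82. Astrocyte markers overlapped, at 8.83 to 8.92 in wild types and 8.77 to 8.92 in mutants. The lists share genes: Slc17a7 is on both the granule cell and forebrain lists, and Aldoc on both the Purkinje and astrocyte lists. The oxidative phosphorylation list, of which 51 of 77 genes were measured, averaged 8.27 to 8.73 in wild types and 8.13 to 8.25 in mutants. Wild type 3 and mutant 5 were the closest there, at 8.27 and 8.25. Of its genes 25 were lower and 0 higher in mutants at a nominal p below 0.05 (background 7.05% and 7.29%), and edgeR called 0. In such bulk samples, fewer cells of a type and less RNA per cell cannot be told apart. The part that these differences play in the site usage below was not tested.

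**Figure D1:**
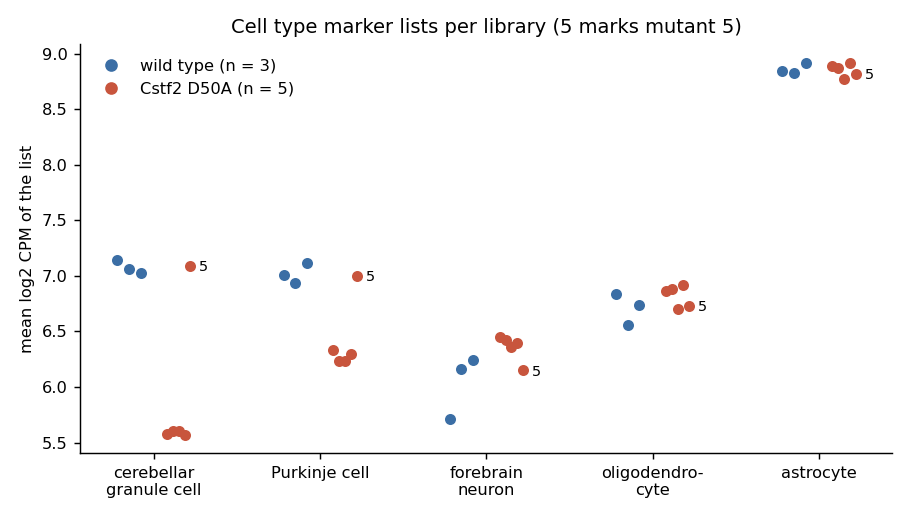
Mean log2 CPM (y axis) of the measured genes of 5 cell type marker lists (x axis) in each of 3 wild-type and 5 Cstf2 D50A libraries, with mutant 5 marked by its number. Mutants 1 to 4 lie between 5.57 and 5.60 in the cerebellar granule cell list, where the wild types and mutant 5 lie between 7.03 and 7.14.

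In wild-type brain the 2 sites were on average used about equally: the median pair sent 54.0% of its reads to the distal site, with quartiles of 19.95% and 86.05%. Taking the mean over all 8 libraries, the distal site held most of the reads in 1385 pairs (54.2%). In 1622 pairs (63.5%) each site held at least 10% of the reads, in 528 the distal site held more than 90% and in 404 less than 10%. The spread between animals was small beside this range, with a median SD of the distal share of 3.05 percentage points in wild types and 3.31 in mutants. In the 640 pairs with the fewest reads the median SD in wild types was 6.74 points, and in the 639 with the most reads it was 0.926.

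The genes with the most reads show how different the balance can be. Frrs1l, a component of AMPA receptor complexes, averaged 551550 reads per library, more than any other gene of these pairs, and ended almost entirely at its distal site, with 0.0627 ± 0.0434% of reads at the proximal site in wild types (SD, n = 3). Gabarapl1, a ubiquitin-like protein of autophagosomes, also ended at the distal site in 99.9 ± 0.0332% of wild-type reads (SD, n = 3). Rtn1, a reticulon of the neuronal endoplasmic reticulum, divided its reads, with 40.1 ± 3.05% distal in wild types and 42.3 ± 1.86% in mutants (SD, n = 3 and 5). Tuba4a, an alpha-tubulin, stood at 45.2 ± 1.82% and 44.1 ± 1.89%, and Actb, cytoplasmic actin, at 85.4 ± 1.1% and 86.7 ± 0.566%. edgeR called none of these 5 genes different between the genotypes, with adjusted p from 0.401 for Frrs1l to 0.818 for Tuba4a.

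The balance over all pairs was then compared between the genotypes. The median over the 2554 pairs of the log2 ratio of distal to proximal reads was 0.23, 0.18 and 0.37 in wild types 1 to 3 and 0.50, 0.49, 0.36, 0.39 and 0.25 in mutants 1 to 5. Mutants 1, 2 and 4 lay above all wild types, while mutants 3 and 5 lay within the wild-type range and wild type 3 lay within the range of the mutants. The means were 0.26 ± 0.0968 and 0.40 ± 0.101 (SD, n = 3 and 5), a difference of 0.14 toward the distal site in mutants (0.18 without mutant 5), beside a pooled SD between animals of 0.0997. As a share of reads, the per-library medians were 53.1% to 56.3% in wild types and 54.4% to 58.6% in mutants. No p-value is attached to this score, because the set of pairs was chosen with results of these libraries known.

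**Figure D2:**
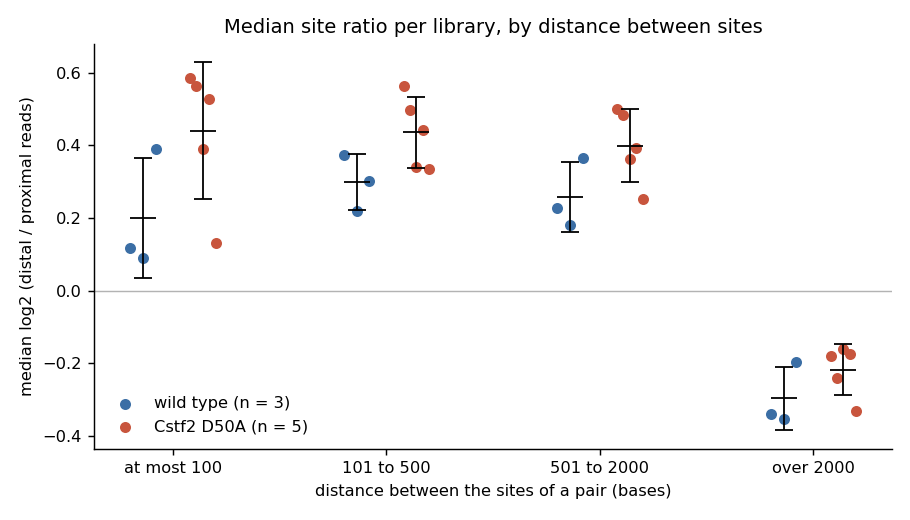
Median over pairs of the log2 ratio of distal to proximal reads (y axis) in each library, for 4 classes of distance between the sites in bases (x axis); points are libraries of 3 wild types and 5 Cstf2 D50A mutants, and bars are means with SD. For the pairs described here the genotypes overlap, with wild types from 0.18 to 0.37 and mutants from 0.25 to 0.50.

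The same score differed by 0.24 between genotypes in the 1685 pairs at most 100 bases apart, by 0.14 in the 1877 pairs over 100 and at most 500 bases apart and by 0.08 in the 1760 pairs over 2000 bases apart, as against 0.14 over all 7876 pairs tested. The difference between these classes was not tested, so nothing in it is shown to be particular to the pairs described here. Within them the score differed by 0.17 in the 1192 pairs up to 1000 bases apart, by 0.15 in the 812 pairs over 1000 and up to 1500, and by 0.08 in the 550 pairs over 1500. Pooling all their reads gave the same direction: without Frrs1l, which supplied the largest number of reads, the distal sites held 54.4 ± 2.05% in wild types and 57.1 ± 1.2% in mutants (SD, n = 3 and 5), and with it 61.6 ± 0.642% and 62.2 ± 0.874%.

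Pair by pair, the genotypes were compared with edgeR, whose quasi-likelihood test was given the reads at each site of every library and asks whether the ratio of distal to proximal reads differs, with Benjamini-Hochberg adjustment over all 7876 pairs tested. It called 0 of the 2554 pairs in either direction (background 0% of the 7876 toward each site), at a smallest adjusted p of 0.38. At a nominal (unadjusted) p below 0.05 there were 247 pairs with relatively more distal reads in mutants, or 9.67%, where the background over all pairs was 8.67%, and 127 with relatively more proximal reads, or 4.97% against a background of 4.25%. They thus stood near the background in both directions. DESeq2, used as an alternative, called 7 pairs with more distal use (0.274%, background 0.19%) and 3 with more proximal use (0.117%, background 0.0762%).

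The direction of single pairs leaned to the distal site to about the degree seen in the whole table. The fitted log2 change was above 0 in 1460 pairs (57.2%, background 59.2%) and below 0 in 1094 (42.8%, background 40.8%), with a median of 0.08 where all pairs tested had 0.12. In the same 3 bands of distance, from short to long, it was 0.08, 0.07 and 0.10. The genotypes did not overlap in 63 pairs with the 5 mutants higher (2.47%, background 2.53%) and in 41 with them lower (1.61%, background 1.63%). The mean distal share differed by 10 percentage points or more in 359 pairs (14.1%, against 13.4% of all pairs), upward in 245 and downward in 114, and in 34 of the 359 the genotypes did not overlap. Over all 7876 pairs it did so in 1056, upward in 731 and downward in 325, without overlap in 87.

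**Figure D3:**
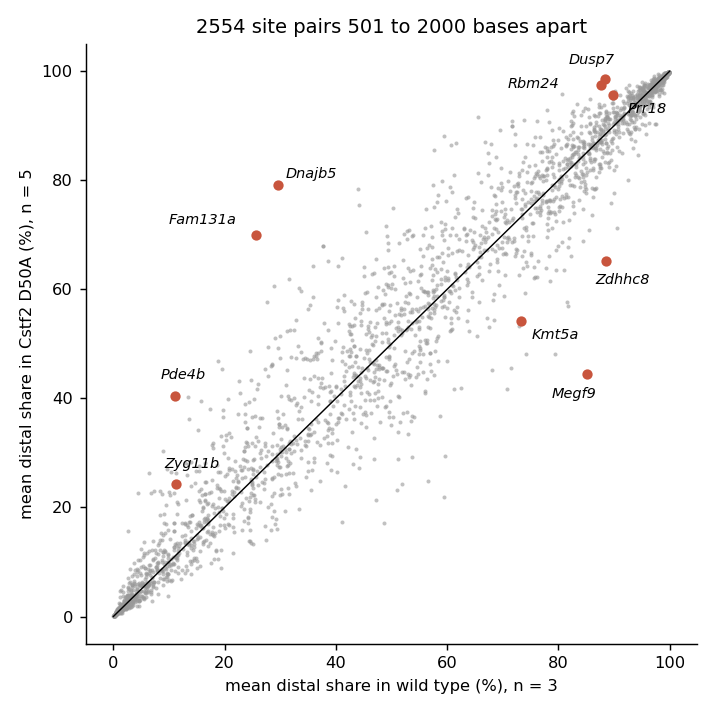
Mean distal share of reads (%) in 3 wild types (x axis) against 5 Cstf2 D50A mutants (y axis), with a point for each of the 2554 pairs, the diagonal marking equal shares and the 10 pairs that DESeq2 called in red. Most points lie near the diagonal, and 359 pairs lie 10 percentage points or more from it.

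The 10 pairs that DESeq2 called are described first, with those toward the distal site before those toward the proximal site. Among them Dusp7, Zyg11b, Rbm24 and Prr18 toward the distal site and Kmt5a toward the proximal site showed no overlap of the genotypes, and Dnajb5, Fam131a, Pde4b, Megf9 and Zdhhc8 overlapped. edgeR gave each of the 10 an adjusted p of 0.38, and over all alternative settings their adjusted p reached 0.817. Without mutant 5 the edgeR log2 changes were 4.25 for Dnajb5, 3.63 for Fam131a, 3.06 for Pde4b, -3.38 for Megf9 and -2.45 for Zdhhc8, beside 3.65, 3.19, 2.69, -2.99 and -2.27 with it. The edgeR adjusted p of all 10 was then 0.0624.

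Dnajb5 encodes a co-chaperone of the HSP40 family, and its sites lie 886 bases apart, at 42970718 and 42971604. Its distal site held 15.8%, 6.06% and 67.0% of the reads in wild types 1 to 3 and 92.5%, 93.0%, 84.0%, 89.0% and 37.1% in mutants 1 to 5. Mutants 1 to 4 were above every wild type, but mutant 5 lay below wild type 3. The means were 29.6 ± 32.7% and 79.1 ± 23.8% (SD, n = 3 and 5), with a DESeq2 log2 change of 4.29 (SE 1.08, adjusted p = 0.0369). The edgeR log2 change of 3.65 was 5.82 without wild type 3 and 2.47 without wild type 2. Distal reads stood at 2.06 ± 3.11 CPM in wild types and 12.9 ± 8.71 CPM in mutants, beside 2.66 ± 0.942 and 2.01 ± 1.06 CPM at the proximal site.

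Fam131a has its sites 578 bases apart, at 20702525 and 20703103. The distal share was 21.3%, 7.67% and 48.0% in wild types and 81.7%, 83.0%, 65.7%, 81.8% and 37.7% in mutants. Again mutants 1 to 4 lay above all wild types and mutant 5 lay between wild types 1 and 3. The DESeq2 log2 change was 3.26 (SE 0.787, adjusted p = 0.0369). Proximal reads were level at 18 ± 4.8 and 17.3 ± 3.3 CPM, while distal reads stood at 7.74 ± 8.89 CPM in wild types and 53.2 ± 29.9 in mutants (SD, n = 3 and 5).

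Pde4b encodes a phosphodiesterase that breaks down cAMP, with sites 1455 bases apart at 102278409 and 102279864. Its distal site took 6.94%, 4.01% and 22.4% of reads in wild types and 49.9%, 46.7%, 32.1%, 58.1% and 15.8% in mutants, so that mutant 5 alone lay inside the wild-type range. The proximal level was 32.7 ± 2.53 CPM in wild types and 33.2 ± 2.14 in mutants, and the distal level 4.32 ± 4.24 and 25.5 ± 14.1 CPM (SD, n = 3 and 5). DESeq2 gave a log2 change in the ratio of 2.76 (SE 0.706, adjusted p = 0.0369). Pde4b is also listed in a second table of the series, which sets a site in an upstream exon against the 3′-most exon, and there the 3′-most exon held 81.9 ± 5.27% and 82.8 ± 2.93% (edgeR adjusted p = 0.926).

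Dusp7, a phosphatase of the MAP kinase ERK, had sites 1123 bases apart at 106276932 and 106278055. Its distal share was 86.9%, 81.9% and 96% in wild types and 99.4%, 99.1%, 98.3%, 98.9% and 97.0% in mutants. Every mutant was above every wild type, with wild type 3 and mutant 5 the closest. Distal reads were 7.59, 5.93 and 36.1 CPM in wild types and 87.1, 88.9, 50.6, 104 and 20 CPM in mutants, so in level mutant 5 lay below wild type 3. Proximal reads were at or near 1 CPM throughout, from 1.14 to 1.52 in wild types and 0.491 to 1.12 in mutants. The DESeq2 log2 change of 3.17 (SE 0.653, adjusted p = 0.00306) had the smallest DESeq2 adjusted p of the 10.

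Rbm24, an RNA-binding protein best known as a splicing regulator of muscle, had sites 524 bases apart at 46525940 and 46526464, with a distal share of 91.5%, 84.0% and 87.4% in wild types and 98.8%, 99.2%, 98.4%, 97.6% and 93.4% in mutants. Here too no mutant overlapped a wild type, and mutant 5 was the lowest mutant. Its distal level was 5.62, 2.40 and 12.3 CPM in wild types and 24.9, 21.8, 20.1, 30.7 and 7.39 CPM in mutants. The proximal level was 0.52, 0.456 and 1.77 CPM in wild types and 0.295, 0.167, 0.317, 0.744 and 0.522 CPM in mutants. The ratio therefore rests on few proximal reads. DESeq2 gave a log2 change of 2.78 (SE 0.708, adjusted p = 0.0369).

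Prr18, a proline-rich protein on the list of oligodendrocyte markers, had sites 758 bases apart at 8536220 and 8536978. The distal share was 86.7%, 90.4% and 92.6% in wild types and 94.8%, 96.1%, 95.2%, 96.2% and 96.2% in mutants, a narrow range above all wild types that included mutant 5. The oligodendrocyte list as a whole, of which 22 of 30 markers were measured, averaged 6.56 to 6.84 log2 CPM in wild types and 6.70 to 6.92 in mutants, with overlap. The DESeq2 log2 change for Prr18 was 1.25 (SE 0.32, adjusted p = 0.0369).

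Zyg11b, a substrate receptor of a cullin ubiquitin ligase, had the most widely spaced sites of the 10, 1968 bases apart at 107902335 and 107900367. It is mostly cut at the proximal site, and the distal share was 12.7%, 7.52% and 13.4% in wild types and 26.2%, 25.7%, 24.6%, 25.9% and 19.1% in mutants, without overlap. Distal reads were 8.32, 4.11 and 13.5 CPM in wild types and 37.7, 34.0, 28.7, 37.5 and 13.4 CPM in mutants. In level, therefore, mutant 5 was close to wild type 3 while its proximal reads, at 56.7 CPM, were below the 87.0 CPM of that library. DESeq2 gave a log2 change of 1.38 (SE 0.289, adjusted p = 0.00352).

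**Figure D4:**
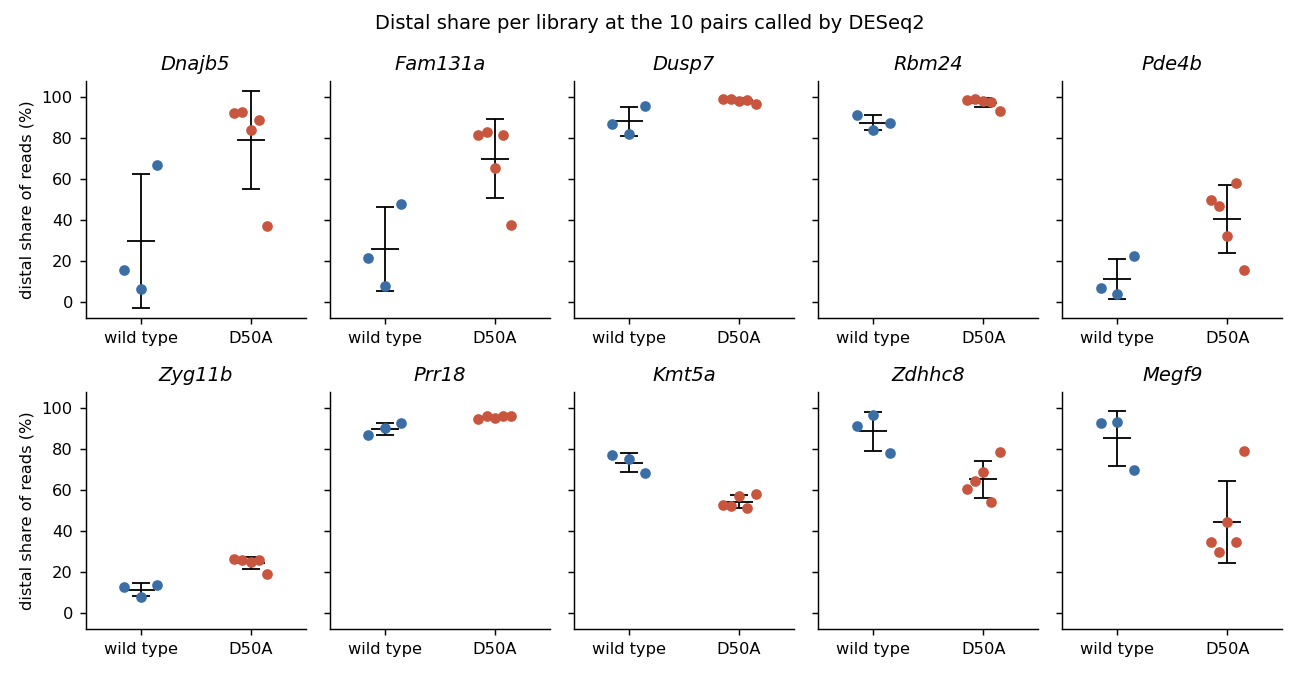
Distal share of reads (%, y axis) in each of 3 wild-type and 5 Cstf2 D50A libraries (x axis) for the 10 pairs that DESeq2 called, with bars for the mean and SD. The genotypes do not overlap in Dusp7, Rbm24, Zyg11b, Prr18 and Kmt5a, whereas mutant 5 lies among the wild types in Dnajb5, Fam131a, Pde4b, Megf9 and Zdhhc8.

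Kmt5a, which encodes a methyltransferase of histone H4, was the pair without overlap among the 3 toward the proximal site. Its sites lie 774 bases apart at 124911543 and 124912317, and the distal share was 76.9%, 75% and 68.1% in wild types and 52.6%, 52.1%, 56.9%, 51.1% and 58.1% in mutants. All mutants were below all wild types. Both sites had more reads in mutants 1, 2 and 4 than in any wild type: the proximal level was 1.87, 1.54 and 6.91 CPM in wild types and 22.1, 20.9, 9.20, 23.2 and 3.13 in mutants, and the distal level 6.24, 4.62 and 14.8 CPM and 24.6, 22.8, 12.1, 24.2 and 4.35. The DESeq2 log2 change in the ratio was -1.19 (SE 0.294, adjusted p = 0.0369).

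Megf9, a transmembrane protein with EGF-like repeats, had sites 1783 bases apart at 70089882 and 70088099. The distal share was 92.8%, 93.3% and 69.7% in wild types and 34.6%, 29.4%, 44.4%, 34.3% and 79.0% in mutants. Mutants 1 to 4 lay far below the wild types, and mutant 5 lay above wild type 3. The difference was at the proximal site, with 0.52, 0.342 and 3.12 CPM in wild types and 9.83, 11.6, 4.76, 11.7 and 1.48 CPM in mutants, beside 6.19 ± 1.28 and 5.10 ± 0.86 CPM at the distal site (SD, n = 3 and 5). The DESeq2 log2 change was -3.18 (SE 0.787, adjusted p = 0.0369).

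Zdhhc8, a palmitoyltransferase, had sites 1475 bases apart at 18222321 and 18220846. Its distal share was 91.3%, 96.6% and 78.0% in wild types and 60.5%, 64.1%, 68.8%, 54.1% and 78.4% in mutants, so mutant 5 and wild type 3 coincided. Proximal reads stood at 1.25, 1.31 and 14.3 CPM in wild types and 39.5, 35.2, 25.8, 47.8 and 11.5 CPM in mutants. DESeq2 gave a log2 change of -2.36 (SE 0.6, adjusted p = 0.0369), and the edgeR log2 change of -2.27 was -1.48 without wild type 2.

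**Figure D5:**
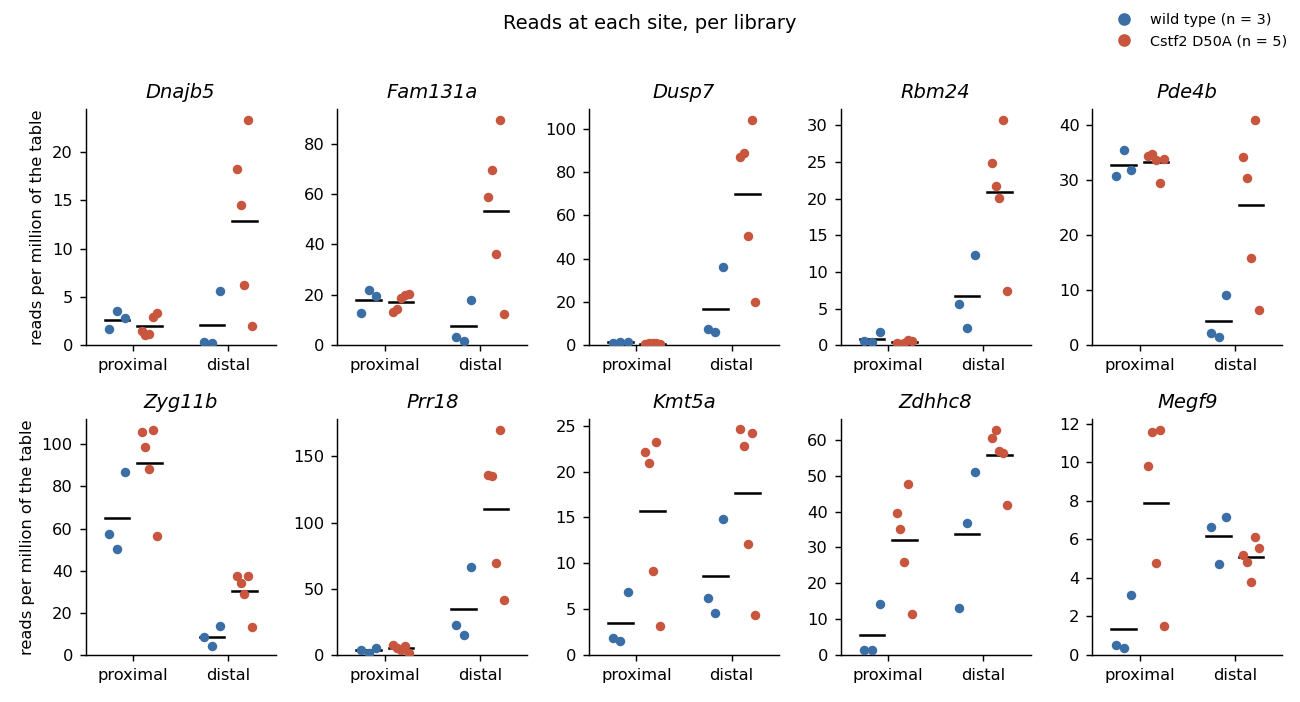
Reads scaled to the library total (CPM, y axis, each panel on its own scale from 0) at the proximal and distal site (x axis) in every library for the 10 pairs that DESeq2 called; points are libraries and the lines are means. In Pde4b and Fam131a the proximal reads are level between genotypes and the distal reads differ, and in Megf9 the proximal reads differ.

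Beyond these, the pairs with the smallest edgeR p among those averaging 50 or more reads per library were examined, 10 in each direction. Toward the distal site they included Tmod3, a capping protein of actin filaments, with a distal share of 41.1%, 38.1% and 57.1% in wild types and 67.6%, 74.5%, 72.1%, 71.5% and 66.7% in mutants, which did not overlap. Its proximal level was 2.98 ± 0.659 CPM in wild types and 2.98 ± 0.773 in mutants, and its distal level 2.72 ± 1.53 and 7.32 ± 2.46 CPM (SD, n = 3 and 5). The edgeR log2 change was 1.51 (SE 0.328, adjusted p = 0.38).

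Tbpl1, a relative of the TATA-binding protein, had a distal share of 71.1%, 52.8% and 79.6% in wild types and 89.4%, 89.5%, 84.4%, 88.9% and 80.9% in mutants, at sites 1498 bases apart. Taf9b, related to a subunit of the general factor TFIID, had 82.6%, 70.4% and 89.1% in wild types and 98.3%, 96.7%, 94.9%, 98.7% and 90.4% in mutants. In both genes no mutant overlapped a wild type, and mutant 5 and wild type 3 were the closest libraries of the 2 genotypes. Ccar1, a transcriptional coactivator, had 10.5%, 2.63% and 13.8% in wild types and 25.7%, 32.9%, 32.3%, 35.3% and 26% in mutants, on 67.6 reads per library. The proximal site of Taf9b held 0.823 ± 0.362 CPM in wild types and 0.603 ± 0.151 in mutants (SD, n = 3 and 5). The distal site of Ccar1 held 0.495 ± 0.482 and 1.94 ± 0.731 CPM. Both ratios therefore rest on few reads at the less used site. The edgeR log2 changes were 1.59 (SE 0.401) for Tbpl1, 2.64 (SE 0.679) for Taf9b and 2.01 (SE 0.456) for Ccar1, each at an adjusted p of 0.38.

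The other pairs toward the distal site were at the ends of the range, where a small change in share is a large change in ratio. Vopp1 ended at the distal site in 99.3 ± 0.189% of reads in wild types and 99.7 ± 0.084% in mutants (SD, n = 3 and 5). Its proximal site had 1.38 ± 0.311 and 0.70 ± 0.184 CPM. Fam149a stood at 5.52 ± 0.89% and 13.7 ± 3.8%, with 7.87% in mutant 5 where the other mutants had 12.6% to 18.1%.

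Toward the proximal site, Hnrnpll, a regulator of splicing related to hnRNP L, had a distal share of 52.9%, 55.9% and 51.6% in wild types and 39.1%, 37.1%, 30.6%, 37.0% and 35.9% in mutants. The genotypes were apart by more than 10 percentage points, and here mutant 5 was no closer to wild type than the others. Its sites lie 1801 bases apart, and the edgeR log2 change was -1.03 (SE 0.258, adjusted p = 0.38). The proximal level was 3.06 ± 1.7 CPM in wild types and 6.82 ± 1.68 in mutants, and the distal level 3.43 ± 1.66 and 3.89 ± 1.27 CPM (SD, n = 3 and 5).

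Nprl3, a subunit of the GATOR complex that restrains mTORC1 when amino acids are scarce, had a distal share of 50.0%, 64.5% and 31.2% in wild types and 20%, 9.09%, 9.48%, 17% and 30.2% in mutants. Slc7a1, a transporter of cationic amino acids, had 58.8%, 54.0% and 40.4% in wild types and 32.0%, 31.0%, 34.8%, 30.5% and 41.3% in mutants. Nprl3 showed no overlap, with wild type 3 and mutant 5 close together, and in Slc7a1 mutant 5 lay above wild type 3. In both genes the proximal site differed and the distal site was level: proximal reads were 1.97 ± 1.58 and 7.57 ± 2.2 CPM for Nprl3 and 14.8 ± 5.97 and 32.9 ± 3.87 CPM for Slc7a1, while distal reads were 1.46 ± 0.286 and 1.43 ± 0.499 CPM and 14.7 ± 1.3 and 16.8 ± 1.52 CPM (SD, n = 3 and 5).

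Ipmk, the inositol polyphosphate multikinase, had 97.6 ± 1.54% distal reads in wild types and 90.3 ± 3.88% in mutants, with 96.9% in mutant 5 inside the wild-type range. Btbd11, a BTB domain protein, had 97.4 ± 1.53% and 90.2 ± 4.06% (SD, n = 3 and 5), with mutant 5 at 95.3% just below the lowest wild type at 95.6%. Vps37b, a subunit of the ESCRT machinery, had only 1.64 ± 0.273% and 0.723 ± 0.205% of reads at the distal site, and Cd99l2, a membrane protein related to CD99, had 99.6 ± 0.221% and 98.9 ± 0.27%. The distal site of Vps37b held 1.02 ± 0.154 and 0.431 ± 0.113 CPM. The proximal site held 0.492 ± 0.365 and 2.32 ± 1.23 CPM for Ipmk, 0.464 ± 0.335 and 1.65 ± 0.716 for Btbd11 and 0.511 ± 0.255 and 1.21 ± 0.326 for Cd99l2. The shares of all 4 pairs therefore rest on few reads at the less used site. The edgeR log2 changes of these 4 pairs ran from -2.17 for Ipmk to -1.19 for Vps37b, each with an adjusted p of 0.38.

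Libraries were not equally far apart in these pairs. Among the 247 pairs at a nominal p below 0.05 toward the distal site, the wild-type library nearest to the mutants was wild type 3 in 221, and the mutant nearest to the wild types was mutant 5 in 198. Among the 127 pairs toward the proximal site the counts were 102 and 91. In 54 of the 247 and 29 of the 127 the genotypes did not overlap, beside 63 and 41 of all 2554 pairs. The nearest library was counted only in pairs chosen by p, so no trait particular to them can be read from it. Mutants 1 to 4 all lay beyond every wild type in 184 and 86 pairs, and mutant 5 did so in 79 and 46, and these counts describe pairs chosen by their p. Over all 2554 pairs, in the direction of each pair's fitted change, mutants 1 to 4 all lay beyond every wild type in 491 and mutant 5 did so in 557. Without mutant 5, edgeR called 0 of the 2554 pairs, with 474 at a nominal p below 0.05 with more distal and 258 with more proximal use. Without wild type 3 it called 0 as well, with 417 and 254, and without wild type 2 the counts were 76 and 50. The matching counts over all 7876 pairs are not given here, so these shifts are not shown to be particular to the pairs described.

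The change in ratio came mostly with more reads at the favoured site and, to a lesser degree, fewer at the other. For the 247 pairs toward the distal site the median log2 change in CPM between the genotype means was 0.75 at the distal and -0.33 at the proximal site, and for the 127 pairs toward the proximal site it was 0.79 at the proximal and -0.23 at the distal site (0.1 CPM added). The distal level was higher in mutants in 233 of the 247, and the proximal level in 120 of the 127, which their choice by the ratio favours. Over all 2554 pairs the medians were 0.09 at the distal and 0.01 at the proximal site.

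Levels of the genes were compared on the summed reads of both sites. edgeR called 0 of the 2554 genes (background 0% higher and 0% lower), at a smallest adjusted p of 0.343. At a nominal p below 0.05 there were 180 genes higher in mutants (7.05%, background 7.29%) and 175 lower (6.85%, background 7.05%), near the background in both directions. The log2 change was above 0 in 1255 genes (49.1%, background 50.8%) and below 0 in 1299 (50.9%, background 49.2%). The lowest mutant was above the highest wild type in 59 genes (2.31%, background 2.45%) and the reverse held in 55 (2.15%, background 2.31%). DESeq2 called 4 higher, Nprl3, Slc7a1, Fam131a and Slc25a22 (0.157%, background 0.317%), and 1 lower, Fam107a (0.0392%, background 0.0127%). Of the 374 pairs at a nominal p below 0.05 in usage, 88 (23.5%) were also among the 355 genes at that level in summed reads, which is 24.8% of the latter. Over all 7876 pairs the overlap was 257, or 25.2% of 1018 pairs and 22.8% of 1129 genes. Of the 88, 48 had more distal reads and a higher level, 10 more distal reads and a lower level, 21 more proximal reads and a higher level, and 9 more proximal reads and a lower level.

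Slc7a1 stood at 4.64, 4.97 and 5.12 log2 CPM in wild types and 5.62, 5.54, 5.62, 5.70 and 5.58 in mutants. All mutants, mutant 5 included, were above all wild types, and the DESeq2 log2 change was 0.69 (SE 0.149, DESeq2 adjusted p = 0.0105, edgeR adjusted p = 0.343). Slc25a22, a mitochondrial glutamate carrier, stood at 1.39, 1.81 and 3.53 in wild types and 4.79, 4.59, 4.03, 5.05 and 3.27 in mutants, so mutant 5 was below wild type 3. Its distal share was 59.1%, 51.8% and 85.6% in wild types and 96.6%, 95.6%, 92.6%, 97.4% and 75.5% in mutants. Mutant 5 was below wild type 3 in this measure too. Fam131a, described above, stood at 4.66 ± 0.531 and 6.01 ± 0.619 log2 CPM (SD, n = 3 and 5).

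Cs, which encodes citrate synthase of the tricarboxylic acid cycle, and Arhgef28, a guanine nucleotide exchange factor, were also among the 5 with the smallest p for a higher level. Cs stood at 5.13, 4.84 and 5.86 log2 CPM in wild types and 6.43, 6.44, 6.25, 6.53 and 5.77 in mutants, and its distal share was 57.5 ± 17.2% and 79.2 ± 5.67%. Arhgef28 stood at 1.90 ± 0.476 and 3.0 ± 0.417 log2 CPM, and its distal share at 41.0 ± 8.86% and 17.4 ± 11% (SD, n = 3 and 5). In these 2 genes the level was higher in mutants with opposite sites favoured, and neither the level nor the usage passed edgeR's test (adjusted p of 0.343 and 0.38 in each).

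Among genes with a lower level in mutants, Fam107a, an actin-associated protein, stood at 7.48, 7.23 and 7.02 log2 CPM in wild types and 6.67, 6.62, 6.48, 6.69 and 6.83 in mutants, without overlap. The DESeq2 log2 change was -0.60 (SE 0.157, DESeq2 adjusted p = 0.0479, edgeR adjusted p = 0.343), and the distal share was level at 90.7 ± 2.59% and 89.9 ± 1.44% (SD, n = 3 and 5). Akap7, an anchoring protein for protein kinase A, stood at 6.61 ± 0.197 and 6.07 ± 0.22 log2 CPM. The wild types lay between 6.41 and 6.80 and mutant 5, at 6.45, lay inside that range.

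Stk17b, Chn2 and Pax6 followed the cerebellar markers, to whose lists they belong. Chn2, a GTPase-activating protein for Rac, stood at 8.56, 8.57 and 8.76 log2 CPM in wild types, 7.35, 7.32, 7.26 and 7.51 in mutants 1 to 4 and 8.51 in mutant 5. Stk17b, a serine/threonine kinase, stood at 3.85 to 4.37 in wild types, 2.37 to 2.87 in mutants 1 to 4 and 3.68 in mutant 5. The level of Pax6, a transcription factor of granule cell precursors, was 2.47 to 3.0, 1.56 to 2.03 and 2.45. Mutant 5 thus stood close to the wild types in all 3 genes, as it did in the granule cell list (7.09 against 5.57 to 5.60 in the other mutants). The distal share of Pax6 was 63.6%, 66.7% and 39.6% in wild types, 14.6%, 17%, 20% and 21.8% in mutants 1 to 4 and 50.8% in mutant 5 (edgeR log2 change -1.98, SE 0.611, adjusted p = 0.38). The share of Chn2 was 95.4 ± 0.317% and 94.6 ± 0.805%, and that of Stk17b 72.1 ± 2.69% and 69.5 ± 4.48% (SD, n = 3 and 5).

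Without mutant 5, edgeR called 12 genes lower (0.47%, background 0.648%) and 1 higher (0.0392%, background 0.216%) in summed reads. Mutants 1 to 4 are those with low cerebellar markers, so in that comparison genotype and cerebellar content cannot be told apart. The lower genes were Cnpy1, Cbln1, Il16, Galnt15, Chd7, Chn2, Stk17b, Mpp3, Pkib, Patj, Col18a1 and Sdc1, and the higher gene was Fam131a, named here after their values were seen. Cnpy1 stood at 6.07, 6.08 and 6.23 log2 CPM in wild types, 0.66, 0.69, 0.44 and 0.66 in mutants 1 to 4 and 5.92 in mutant 5. Cbln1, the cerebellin that granule cells secrete at their synapses with Purkinje cells, stood at 8.71, 8.83 and 8.67, then 5.68, 5.59, 5.74 and 5.67, and 8.81 in mutant 5. The remaining 10 lower genes showed the same order, with mutant 5 from 2.52 in Sdc1 to 8.51 in Chn2 and always above mutants 1 to 4.

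Genes of synapses were considered from lists of the glutamatergic postsynapse, the GABAergic synapse and presynaptic release. For these and the lists that follow, the background at a nominal p below 0.05 over all 7876 pairs was 8.67% with more distal and 4.25% with more proximal use, and no list was tested as a whole. edgeR called 0 of the 14, 7 and 22 members of these lists among the pairs, and DESeq2 called 0. At a nominal p below 0.05 there were 2 with more distal and 2 with more proximal use among postsynaptic genes, 2 and 0 among GABAergic genes, and 1 and 3 among presynaptic genes. The median log2 changes were 0.12, 0.39 and 0.08, beside 0.12 over all pairs tested. Camk2a, the alpha subunit of the calcium/calmodulin-dependent kinase of spines, ended at the distal site in 83.8 ± 2.58% of reads in wild types and 84.1 ± 1.26% in mutants (edgeR adjusted p = 0.955). Dlg4, which encodes a scaffold of the postsynaptic density, ended almost wholly at the proximal site, with 0.111 ± 0.0745% and 0.263 ± 0.167% distal (SD, n = 3 and 5).

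Gad1, which makes GABA, had 87.3 ± 5.82% and 93.9 ± 2.34%. Of the presynaptic genes, Unc13a, the priming factor of synaptic vesicles, had 26 ± 6.61% and 42.6 ± 10.7%, and Stx12, a syntaxin of endosomes, 76.2 ± 8.93% and 62.3 ± 11% (SD, n = 3 and 5). Syt7 and Dnajc5, a calcium sensor and a vesicle chaperone, differed by less than 1 percentage point between the genotypes. Gad1, Unc13a and Stx12 were named after their values were seen. In each of them the genotypes overlapped, with mutant 5 inside the wild-type range, at 90.4%, 27.5% and 79.0%.

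RNA-binding proteins and the 3′ end machinery were considered next. Among 23 members of the list of neuronal RNA-binding proteins 3 stood with more distal and 2 with more proximal use at a nominal p below 0.05, with a median log2 change of 0.14 and 0 called by edgeR or DESeq2. Hnrnpk, an abundant hnRNP, showed a small separation, with a distal share of 39.6%, 39.7% and 38.6% in wild types and 35.2%, 34.9%, 32.2%, 35.1% and 34.9% in mutants. All mutants lay below all wild types by at least 3 percentage points, on 10225 reads per library (edgeR log2 change -0.30, SE 0.13, adjusted p = 0.38). Rbfox3, the splicing factor known as the neuronal marker NeuN, had 18%, 13.5% and 28.3% in wild types and 34.0%, 31.5%, 27.7%, 34.7% and 21.9% in mutants, with overlap. Srsf3, a splicing factor, stood at 22.5 ± 3.09% and 37.2 ± 11.1%, and Cpeb3, a regulator of cytoplasmic polyadenylation, at 81.6 ± 4.85% and 86.6 ± 1.5% (SD, n = 3 and 5). Both were named after their values were seen. The genotypes overlapped in both, with mutant 5 inside the wild-type range at 21.4% for Srsf3 and 84.0% for Cpeb3.

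The cleavage and polyadenylation list had 6 members among the pairs, with a median log2 change of -0.18, 0 calls by either tool and 0 distal and 1 proximal member at a nominal p below 0.05. The latter was Pcf11, a termination factor, at 79.3 ± 15.4% in wild types and 48.2 ± 15.6% in mutants (SD, n = 3 and 5). Its genotypes overlapped, with mutant 5 at 71.3% inside the wild-type range of 63.2% to 94.0%. Rtf1, a factor of transcription elongation, stood at 15.7 ± 1.23% and 16.8 ± 0.927%, and Cpsf2, a subunit of the cleavage and polyadenylation specificity factor, at 60.4 ± 10.5% and 59.6 ± 6.9%.

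The ubiquitin-proteasome list had 21 members, of which 5 stood with more distal and 0 with more proximal use at a nominal p below 0.05, with 16 log2 changes above 0 and a median of 0.41, beside 0.12 over all pairs tested. Beside these counts, 8.67% and 4.25% of all pairs were at that level, and edgeR and DESeq2 each called 0. The 5 were Cul4b, a cullin, Psmd11, a subunit of the proteasome lid, the conjugating enzymes Ube2e3 and Ube2q1 and the ligase Ube3c, named after their values were seen. Ube2q1 stood at 38.6% to 48.5% in wild types and 49.7% to 56.7% in mutants, without overlap. Cul4b stood at 91.1 ± 2.98% and 95.6 ± 1.56% and Ube3c at 17.9 ± 6.47% and 30.9 ± 9.76% (SD, n = 3 and 5), with overlap in both. Among the members with the most reads, Ube2d3 had 25.7 ± 9.84% and 32.9 ± 10.3% and Psmd4 0.651 ± 0.454% and 1.29 ± 0.683%.

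Growth factor and MAP kinase signalling had 18 members, with 2 with more distal and 0 with more proximal use at a nominal p below 0.05, 0 called by edgeR and 1, Dusp7, by DESeq2, and a median of 0.13. Grb2, the adaptor that links receptor tyrosine kinases to RAS, stood at 42.7%, 41.5% and 45.6% in wild types and 54.7%, 57.0%, 55.2%, 48.4% and 52.1% in mutants, without overlap (edgeR log2 change 0.59, SE 0.177, adjusted p = 0.38). Its level was 7.23 ± 0.0634 and 7.13 ± 0.0627 log2 CPM. Akt2, a kinase of insulin signalling, stood at 3.88 ± 0.0901% and 3.25 ± 0.517%.

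Voltage-gated channels (16 members, 2 distal and 0 proximal at a nominal p below 0.05, median 0.17) and axon guidance with cytoskeleton (26 members, 3 and 0, median 0.06) had 0 calls by either tool. Cacnb4, a calcium channel subunit, stood at 6.70 ± 6.17% and 22.7 ± 12.1%, and Kcnip3, a potassium channel partner, at 58.2% to 72.5% and 73.9% to 80.9% without overlap. Sema3e, a guidance cue, stood at 15.8 ± 8.05% and 39.5 ± 13.1%, and Ephb1, an ephrin receptor, at 96.7 ± 0.862% and 98.4 ± 0.187% (SD, n = 3 and 5). These 4 were named after their values were seen. Cacnb4 and Sema3e overlapped between the genotypes, with mutant 5 inside the wild-type range at 6.9% and 22.6%, and Ephb1 did not overlap. Stmn1, which destabilises microtubules, ended at the proximal site almost throughout, with 0.189 ± 0.0182% and 0.307 ± 0.0832% distal. X-linked intellectual disability genes had 15 members, 3 distal and 0 proximal at that level, 0 called by either tool and a median of -0.05. Dlg3, a synaptic scaffold on the X chromosome, stood at 94.7%, 94.3% and 96.5% in wild types and 97.5%, 97.9%, 97.6%, 96.7% and 96.1% in mutants, with overlap through mutant 5.

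The 6 members of the oxidative phosphorylation list had a median wild-type distal share of 0.39%, beside 54.0% over the 2554 pairs, and ran from 0.233% to 55.2%. Sdhb stood at 0.233 ± 0.123% and 0.103 ± 0.0914%, Cox5a at 0.417 ± 0.0409% and 0.546 ± 0.146%, and Atp5h at 0.293 ± 0.0673% and 0.281 ± 0.0733% (SD, n = 3 and 5), subunits of complex II, complex IV and the ATP synthase. None of the 6 was at a nominal p below 0.05 in usage, 0 were called by either tool, and the median log2 change was 0.01.

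Markers of glia and vessels were few among the pairs. Oligodendrocyte markers numbered 9, with 2 distal and 0 proximal at a nominal p below 0.05, 0 called by edgeR, 1 (Prr18) by DESeq2 and a median of 0.32; astrocyte markers numbered 3 (1 and 1, median -0.18), microglial markers 3 (0 and 0, median 0.14) and endothelial or pericyte markers 3 (0 and 0, median 0.44), with 0 calls by either tool. Cldn11, the claudin of myelin, stood at 83.2 ± 1.45% and 85.3 ± 0.891%, Sox9, a transcription factor of astrocytes, at 73.9 ± 2.6% and 71.2 ± 4.68%, and Cx3cr1, the fractalkine receptor of microglia, at 83.5 ± 1.78% and 84.8 ± 0.866% (SD, n = 3 and 5). Of neuronal markers, 4 were of the forebrain (0 distal and 1 proximal, median -0.14), 5 of cerebellar granule cells (0 and 1, median -0.24) and 7 of Purkinje cells (1 and 0, median 0.04), again with 0 calls. Cbln1, whose level was so much lower in mutants 1 to 4, had a distal share of 44.9%, 38.3% and 31.9% in wild types and 31.5%, 31.9%, 27.8%, 31.0% and 43.3% in mutants (edgeR adjusted p = 0.534). Markers of choroid plexus, ependyma and blood had 0 members.

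Finally, the same genes were followed in the table that sets a site in an upstream exon against the 3′-most exon, where 1322 of the 2554 were listed and tested. The 2 tables share reads, since in all 1322 genes the 3′-most exon had no fewer reads than its 2 sites added together. The 3′-most exon held a median of 95.9% of the reads in wild types and 96.4% in mutants. edgeR called 0 toward either exon (background 0% and 0% of 6001 pairs), with 114 genes favouring the 3′-most exon at a nominal p below 0.05 (8.62%, background 10.4%) and 46 favouring the upstream exon (3.48%, background 3.63%). DESeq2 called 0 of the 1322 (background 0.0667% and 0.0167%). The genotypes did not overlap in 66 genes toward the 3′-most exon (4.99%, background 4.23%) and 20 toward the upstream exon (1.51%, background 1.65%). The log2 change was above 0 in 810 genes (61.3%, background 62.2%) and below 0 in 512 (38.7%, background 37.8%). The median log2 change was 0.15, beside 0.17 over all pairs of that table. Of the 215 genes at a nominal p below 0.05 in proximal and distal usage and the 160 at that level here, 36 were in both. The matching overlap over all genes is not given here, so this count is not shown to be particular to the pairs described. Among genes described above, the share of the 3′-most exon was 82.0 ± 1.15% in wild types and 91.0 ± 2.75% in mutants for Slc7a1, 71.0 ± 14.3% and 85.9 ± 3.63% for Zdhhc8 and 69.6 ± 8.97% and 83.1 ± 6.39% for Cs (SD, n = 3 and 5), each with an edgeR adjusted p of 0.282. These genes were chosen with their values known, and others differed. Ube2d3 went the other way, at 99.92 ± 0.0463% and 99.76 ± 0.0501% (edgeR log2 change -1.58, adjusted p = 0.282). Btbd11 was level at 96.7 ± 0.867% and 96.6 ± 1.56%.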

How the data were processed

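Total brain RNA of 3 wild-type and 5 Cstf2 D50A mice was made into QuantSeq 3′ REV libraries, per the labels' protocols. The deposited values are raw counts of reads at each site, given by the authors in 2 tables, per the file headers. Per the submitters' processing notes, the tools included HTSeq 0.6.0, STAR 2.5 and FastQC 0.11.3, with positions on build mm9. How sites were chosen, internally primed reads removed or strand used was not stated in the sources read, so overlapping genes and close paralogs are uncertain. All value columns were assigned through the library code in a sample's title. Replicate numbers follow the order of the records and only name animals.

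Pairs were tested when both sites added together averaged at least 20 reads per library and each site had at least 10 reads in all. This limit kept 7876 of 7951 pairs. All 2554 pairs described were kept. Usage was fitted over the whole table with edgeR 4.0.16 (R 4.3.3; quasi-likelihood F test; library block, site, and site by genotype), and summed reads with TMM scaling and genotype. The Benjamini-Hochberg threshold was 0.05. DESeq2 1.42.0 and limma 3.58.1 were alternatives, with other filters, other scaling and each library left out. The edgeR, DESeq2 and limma fits were tested on simulated data. Shares are percentages of a pair's reads, CPM is scaled to the table's reads, and 0.5 was added to counts before log2 ratios. Srebf1 had no reads in 1 library and no share there.

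Pairs were named if DESeq2 called them, as the 10 with the smallest p per direction in usage (5 in summed reads) among those averaging 50 reads, as the 3 deepest of each of 19 lists, as the 5 deepest of all, or as nearest to the limits. Not every pair so named is reported here. The pairs and lists were chosen with earlier results of these data known. Counting error alone limits pairs near 20 reads to coarse shares. No genome of build mm9 was used here, so no sequence is shown.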

Additional observations from a re-analysis of the deposited data

Results flagged for a closer look

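In 6 of 35 sets of mutant values tested (the named pairs' distal shares, the named genes' levels and the median ratio), a library stood apart from the other 4 by Dixon's test, and it was mutant 5 each time. All sets share the same 5 mutants, and the named pairs and genes were chosen by p in these libraries. A rate expected by chance therefore does not apply to this count. The distal share in mutant 5 was 37.1% for Dnajb5 where the other mutants had 84.0% to 93.0%, 93.4% for Rbm24 (97.6% to 99.2%), 19.1% for Zyg11b (24.6% to 26.2%) and 0.365% for Vps37b (0.76% to 0.878%). The level of Nprl3 was 2.54 log2 CPM (3.19 to 3.41) and that of Chn2 8.51 (7.26 to 7.51). In Dnajb5, Rbm24, Zyg11b, Nprl3 and Chn2 the value lay on the side of the wild types, and in Vps37b on the far side. The distal site of Vps37b held 0.261 CPM in mutant 5 and 0.393 to 0.555 CPM in the other mutants. For the proximal site of Rbm24 the levels were 0.522 and 0.167 to 0.744 CPM. The shares of both pairs therefore rest on few reads. Mutant 5 is also the mutant with wild-type levels of cerebellar markers, and the part of this in these values was not tested.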

How the results depend on the processing

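No paired analysis was possible because the labels give each animal a code of its own, and the numbers used here follow the order of the records and pair no animals across genotypes. edgeR's counts of 0 called pairs in usage held under each filter, scaling and left-out library and with limma, while DESeq2 called 7 pairs with more distal and 3 with more proximal use, and 4 genes higher and 1 lower in summed reads. The counts at a nominal p below 0.05 depended on single animals. Leaving out each library in turn gave 76 to 474 pairs with more distal and 50 to 258 with more proximal use, and 56 to 436 genes higher and 33 to 375 lower. The lowest counts in usage came without wild type 2 and the highest without mutant 5. In summed reads the lowest came without wild type 1 and the highest without wild type 3. The same counts over all pairs are not given here. edgeR called 0 to 1 genes higher and 0 to 12 lower, the calls arising without mutant 5, among them Fam131a (adjusted p = 0.0395), Stk17b (0.00846) and Chn2 (0.000742). The difference of 0.14 in the median log2 ratio stayed above 0 and moved by less than the SD between animals under every alternative run for it. None of the 23 pairs named for usage or the 11 genes named for level changed direction in that measure, while the usage change of some list members and deeply read genes, Camk2a, Cpsf2, Gabarapl1 and Syt7 among them, crossed 0. With 3 wild types, a difference resting on wild type 3 or mutant 5 cannot be separated from the spread between animals.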
